A study of Mus musculus with 28 samples.

Results

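The starts, bodies and surrounding regions of 6 genes associated with the 2-cell embryo, Gm21761, Tcstv1, Tcstv3, Zfp352, Arg2 and Spz1, were placed in domains of histone H3 lysine 9 dimethylation (H3K9me2) called in mouse embryonic stem cells (mESCs) and 2-cell-like cells (2CLCs). The genes were chosen by name, and all 6 were found among the 21755 protein-coding genes annotated on chromosomes 1 to 19 and X (GENCODE M21, mm10). The deposited lists give the position of each domain and no level of the mark or of any transcript. The association with the 2-cell stage was taken as given when the genes were chosen and was not checked here.

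H3K9me2 was profiled by ultra low input native ChIP with antibody ab1220 in 28 libraries, 14 from immunoprecipitated chromatin and 14 from input. All cells were of a BL6/129 hybrid background and carried EHMT2-dTAG-mcherry, a degron tag with an mCherry reporter at Ehmt2, so the DMSO controls carried the tagged allele as well. For the sorted cells the line EHMT2-dTAG-mcherry MERV-GFP was given DMSO or the degrader dTAG-13 for 72 h, and GFP-negative mESCs and GFP-positive 2CLCs were collected, with 3 ChIP and 3 input libraries for each cell state and treatment. These sorted cells came from 1 clone, and 2CLCs are defined by the MERVL reporter used in the sort. Which replicates also received the retinoid receptor agonist TTNBP is unclear, as the labels give it for 2 unspecified ones and the methods for the sorted cells in general. Unsorted EHMT2-dTAG-mcherry mESCs treated with DMSO for 24 h gave 2 ChIP and 2 input libraries. One list of domains was deposited for each of the 4 sorted conditions, and 1 further list carries no condition in its name, called the unnamed set below. With 1 list per condition and no value per library there is no replicate error, no test and no known depth behind any position, and each difference below is between single lists.

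EHMT2, also called G9a, is a methyltransferase that deposits H3K9me2, a mark found in broad regions of silent chromatin. Zygotic genome activation in the mouse takes place mainly at the 2-cell stage, when a distinct set of genes and MERVL retroviral elements is transcribed and then silenced again. A small share of cells in mESC cultures re-enters a similar transcriptional state. Gm21761, Tcstv1 and Tcstv3 lie in a cluster of related genes near the end of chromosome 13, and Tcstv1 and Tcstv3 are members of the 2-cell-stage variable group. Zfp352 encodes a zinc finger protein, Arg2 the mitochondrial arginase that cleaves arginine to ornithine and urea, and Spz1 a basic helix-loop-helix leucine zipper protein of spermatogenic cells.

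The 300 bases around the RefSeq start (GRCm38.p6, 250 bases before and 50 after the start) are shown for the 3 members with a promoter sequence available. The windows of Gm21761 and Zfp352 were inside domains in all 5 sets. That of Spz1 was outside domains in every sorted set and inside in the unnamed set. The other members, Tcstv1, Tcstv3 and Arg2, were not in the promoter table used. For Gm21761 the RefSeq start, base 119913468, differs from the GENCODE start used for all placements and distances below, base 119929272. Its window here therefore lies within the GENCODE gene body and not at that start. Capitals mark TATAA on the strand of the gene and, in the first 2 sequences, TTTAATCCAG, the longest run that Gm21761 and Zfp352 shared on that strand. Sequences are written 5′ to 3′ on the strand of the gene.

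Gm21761, chr13:119913419-119913718, minus strand: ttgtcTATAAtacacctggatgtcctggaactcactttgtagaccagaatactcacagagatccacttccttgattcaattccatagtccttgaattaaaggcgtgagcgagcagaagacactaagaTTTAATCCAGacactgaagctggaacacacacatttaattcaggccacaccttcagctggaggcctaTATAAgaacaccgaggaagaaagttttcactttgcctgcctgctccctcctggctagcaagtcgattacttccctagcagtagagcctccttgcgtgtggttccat

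Zfp352, chr4:90218570-90218869, plus strand: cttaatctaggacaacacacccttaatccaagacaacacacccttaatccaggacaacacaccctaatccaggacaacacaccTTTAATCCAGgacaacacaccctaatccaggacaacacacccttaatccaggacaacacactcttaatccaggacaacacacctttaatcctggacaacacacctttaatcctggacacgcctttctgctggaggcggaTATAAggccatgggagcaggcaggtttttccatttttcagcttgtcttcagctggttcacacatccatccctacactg

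Spz1, chr13:92576183-92576482, minus strand: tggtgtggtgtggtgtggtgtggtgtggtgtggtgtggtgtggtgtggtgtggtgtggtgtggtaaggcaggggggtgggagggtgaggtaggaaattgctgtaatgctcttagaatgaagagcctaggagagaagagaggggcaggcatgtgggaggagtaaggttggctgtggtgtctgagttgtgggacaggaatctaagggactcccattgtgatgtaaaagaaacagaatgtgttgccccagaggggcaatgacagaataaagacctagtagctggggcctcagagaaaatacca

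TATAA nearest to the start lay 56 bases before it in Gm21761 and 28 bases before it in Zfp352, counted from the first base of the motif, and Gm21761 held a further copy near the far end of its window. It was not in the Spz1 window on this strand. Among 32851 RefSeq promoter windows of this length, 17.5% held TATAA on the strand of the gene and 24.9% on either strand. TTTAATCCAG was in 19 of them (0.0578%) on the strand of the gene and in 0.103% on either strand. Both runs of letters were picked after the sequences were seen, and with 1 window reverse-complemented Gm21761 and Zfp352 shared a longer run, of 13 bases. The windows of Gm21761, Zfp352 and Spz1 held 45.7%, 47.0% and 52.3% G and C.

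In mESC DMSO the starts of 3 of the 6 genes lay in a domain, Gm21761, Tcstv3 and Zfp352, against 22.3% of all protein-coding starts. In mESC dTAG 4 of 6 starts did so, with Arg2 added to the same genes, against 23.6%. In 2CLC DMSO the genes inside domains were again Gm21761, Tcstv3 and Zfp352, 3 of 6 against 23.2%. In 2CLC dTAG 5 of 6 starts were inside, with Tcstv1 and Arg2 added, against 26.5%, and Spz1 alone was outside. The unnamed set held 4 of 6 starts, those of Gm21761, Tcstv3, Zfp352 and Spz1, against 30.0%. The share of members in domains was above the background share in each set, but Gm21761, Tcstv1 and Tcstv3 are neighbours in 1 gene cluster and are not independent observations.

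Between DMSO and dTAG no member start left a domain in mESCs, where 5.08% of all coding starts did, or in 2CLCs, where 4.25% did. In mESCs 1 start, that of Arg2, moved from outside to inside domains, against 6.32% of all coding starts. In 2CLCs 2 starts, those of Tcstv1 and Arg2, moved the same way, against 7.52%. These shares are over all coding starts, though only starts inside with DMSO could leave and only those outside could enter. Of coding starts inside with DMSO, 1105 of 4862 left in mESCs and 924 of 5054 in 2CLCs. Of the 3 members inside with DMSO, 0 left in either cell state. Gm21761, Tcstv3 and Zfp352 were inside domains in all 4 sorted sets, a placement shared by 15.1% of coding genes (3284 genes). Arg2 was inside in both dTAG sets and in neither DMSO set, as were 2.72% (592 genes). Tcstv1 was inside in 2CLC dTAG only, as were 3.43% (747 genes), and Spz1 was outside in all 4, as were 65.8% (14321 genes). The domains were seeded above a high percentile of log2(ChIP/Input) and extended until the signal fell below a low one, so a start inside a domain need only lie above the low cut-off. Whether percentiles were set separately for each condition is not given in the sources used here, and no amount of H3K9me2 can be read from a placement.

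**Figure D1:**
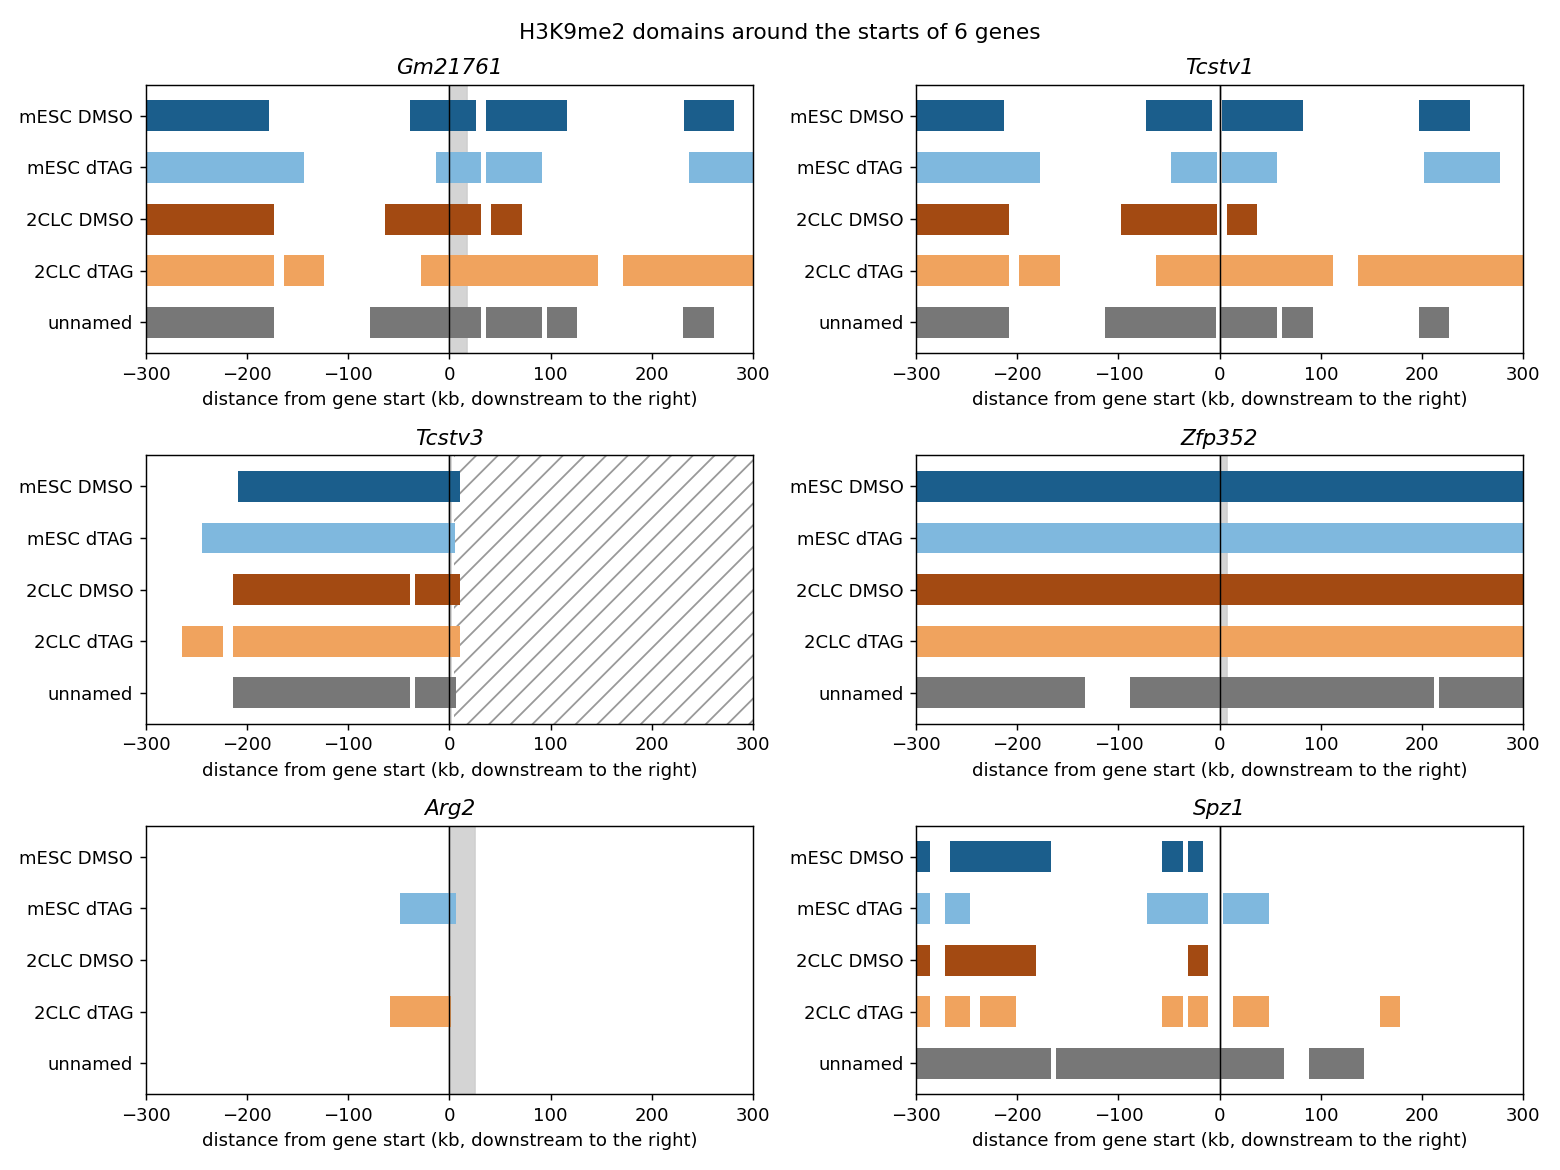
Domains (coloured bars) within 300 kb of the start of each gene in the 4 sorted sets and the unnamed set, by distance from the start in kb with the direction of transcription to the right. Grey shading is the gene body, the black line the start and hatching the region past the last sequenced base. Zfp352 is covered throughout in the sorted sets, the start of Arg2 is inside a domain in the dTAG sets only, and Tcstv1 sits in a narrow gap except in 2CLC dTAG.

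Gm21761 (ENSMUSG00000096175.3, chr13:119912095-119929272, minus strand, mm10) was inside a domain in every set, with 100% of its body covered. Its domain in mESCs was 65 kb wide with DMSO and 45 kb with dTAG, its domain in 2CLCs 95 kb wide with DMSO and 175 kb with dTAG, and its domain in the unnamed set 110 kb. The order of widths among the sorted sets was therefore 2CLC dTAG, 2CLC DMSO, mESC DMSO and mESC dTAG, with dTAG below DMSO in mESCs and above it in 2CLCs. With gaps of up to 10 kb joined the widths were 155 kb with DMSO and 105 kb with dTAG in mESCs, and 135 kb and 175 kb in 2CLCs, so mESC DMSO then exceeded 2CLC DMSO while both directions between treatments were as before. Upstream of the start the mESC domain ran 38.5 kb with DMSO and 13.5 kb with dTAG, and the 2CLC domain 63.5 kb and 28.5 kb. Downstream the mESC domain ran 26.5 kb with DMSO and 31.5 kb with dTAG, and the 2CLC domain 31.5 kb and 146 kb. The wider 2CLC dTAG domain was thus longer on the downstream side, where Tcstv1 lies, and shorter upstream. Within 250 kb on each side, domains covered 47.0% of bases with DMSO and 44.0% with dTAG in mESCs, against 40.3% and 74.0% in 2CLCs. These directions depended on the window, as within 50 kb the 2CLC share was 90.0% with DMSO and 78.5% with dTAG, and within 500 kb the mESC share was 51.6% with DMSO and 59.6% with dTAG. Of the window of 250 kb on each side, 204 kb were in domains with dTAG alone and 35 kb with DMSO alone in 2CLCs. In mESCs the values were 40 kb and 55 kb. Its 2 annotated starts lie 16520 bases apart, and both were inside domains in every set.

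Tcstv1 (ENSMUSG00000096284.2, chr13:119893388-119894785, minus strand) was outside domains in mESC DMSO, mESC dTAG, 2CLC DMSO and the unnamed set. In each of these it lay in a short gap between called domains, 10 kb long in mESC DMSO and in 2CLC DMSO and 5 kb long in mESC dTAG and in the unnamed set. Gaps of this kind were rare, as the share of coding starts in a gap of at most 10 kb was 0.781% with DMSO and 0.506% with dTAG in mESCs, and 0.625% with DMSO and 0.648% with dTAG in 2CLCs. The nearest domain was 2.00 kb from the start in both mESC sets and 3.00 kb away in 2CLC DMSO. Within 50 kb on each side of the start, 90.0% of bases were in domains in mESC DMSO, 93.0% in mESC dTAG and 77.0% in 2CLC DMSO. In 2CLC dTAG the gap was closed, and the gene lay whole in a domain of 175 kb, 63.0 kb from its nearest edge. That domain held 6 coding starts, those of Zfp131, AF067063, D13Ertd608e, Tcstv1, Gm21761 and B020031M17Rik. The call at Tcstv1 thus rested on a gap of 1 or 2 bins of 5 kb, and with gaps of up to 10 kb joined its start was inside a domain in all 5 sets.

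Tcstv3 (ENSMUSG00000095821.2, chr13:120316878-120318178, plus strand) was inside a domain in every set, with 100% of its body covered. In mESCs its domain was 220 kb wide with DMSO and 250 kb with dTAG, in 2CLCs 45 kb with DMSO and 225 kb with dTAG, and in the unnamed set 40 kb. In 2CLC DMSO and in the unnamed set a gap of 1 bin of 5 kb separated it from a domain of 175 kb, and with gaps of up to 10 kb joined the 2CLC width was 225 kb with DMSO and 275 kb with dTAG. Tcstv3 is the last coding gene of the chromosome, and the assembly has no sequence from base 120321640 onward, so every domain ran over the end of the known sequence, 4.76 kb past the start, and 1.15 kb to 6.15 kb of each lay where no sequence is known. Of the 254.762 kb of known sequence within 250 kb of the start, domains held 83.9% with DMSO and 97.7% with dTAG in mESCs, and 83.9% and 96.1% in 2CLCs. The share in this window was higher with dTAG in both cell states, but within 500 kb it was 70.3% with DMSO and 69.1% with dTAG in mESCs, and within 50 kb it was 100% with both treatments in mESCs. Counting only domains of at least 50 kb put Tcstv3 outside in 2CLC DMSO and Gm21761 outside in mESC dTAG.

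The 14 coding genes from AF067063 to Tcstv3 span 487 kb between their first and last starts. In mESCs 11 of them had their start in a domain with DMSO and 8 with dTAG, in 2CLCs 9 with DMSO and 12 with dTAG, and in the unnamed set 10. The 7 genes at the Tcstv3 end, from Gm20767 to Tcstv3, were inside domains in all 5 sets, as was Gm21761. Gm36079 and Gm21188, which lie between Gm21761 and Gm20767, were outside in all 5. AF067063 and D13Ertd608e were inside in mESC DMSO and 2CLC dTAG and outside in mESC dTAG and 2CLC DMSO. B020031M17Rik, the nearest coding start to the right of Gm21761 at 21.5 kb, was outside in mESC dTAG only. The genes whose placement differed between sets were thus AF067063, D13Ertd608e, Tcstv1 and B020031M17Rik, all at the Gm21761 end of the cluster. In 2CLC dTAG a domain of 285 kb farther left, over Hmgcs1 and Nim1k, included 100 kb without known sequence.

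**Figure D2:**
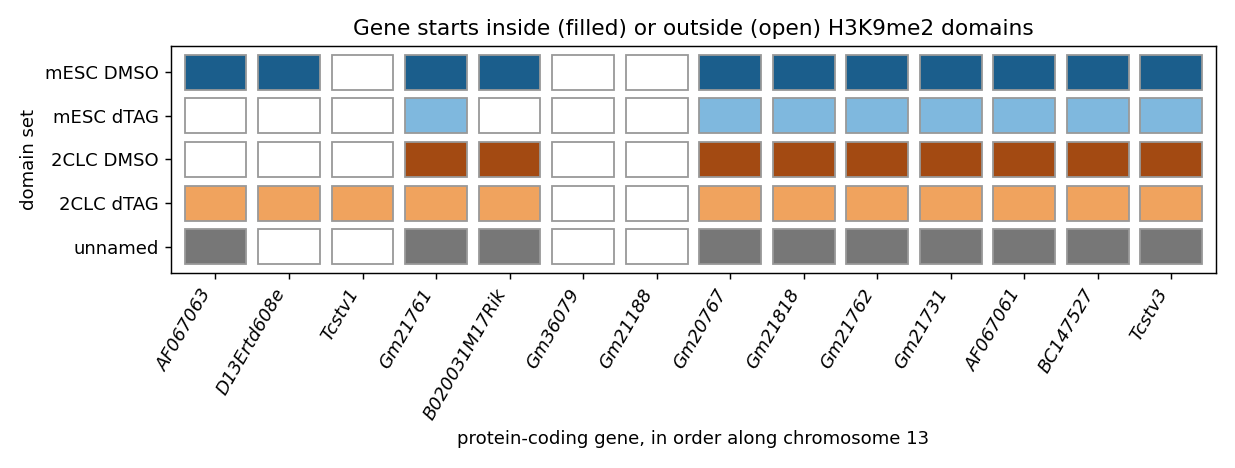
Placement of the starts of 14 protein-coding genes of the chromosome 13 cluster in each domain set, in order along the chromosome. Filled boxes are starts inside a domain and open boxes starts outside. Tcstv1 is filled in 2CLC dTAG alone, Gm21761 and the 7 genes at the right end, from Gm20767 to Tcstv3, are filled throughout, and Gm36079 and Gm21188 are open throughout.

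Many but not all of the cluster genes resemble each other closely, which bears on how reads could be placed. In a pairwise alignment of annotated transcripts, Gm21761 was 98.8% identical to Gm20767 over 1368 bases and 95.1% identical to Tcstv1 over 655 bases. Tcstv1 and Tcstv3 were 94.4% identical over 640 bases, and Tcstv3 was 95% identical to Gm21818 over its whole length of 779 bases. Likeness was lower elsewhere, as Gm21761 was 82.8% identical to AF067063 over 815 bases. Gm36079 and Gm21188 aligned to Gm21761 over only 18 and 100 bases. To Tcstv1 and Tcstv3 they aligned over 20 bases or fewer. Of all 100-base words in the Gm21761 body, 54.1% occurred more than once in the genome, on either strand. The share was 21.9% for Tcstv1, 25.5% for Tcstv3, 1.08% for Zfp352, 0.137% for Arg2 and 0% for Spz1. Within 50 kb on each side of the start it was 55.9%, 53.7% and 22.2% for Gm21761, Tcstv1 and Tcstv3, and 6.97%, 7.87% and 13.9% for Zfp352, Arg2 and Spz1. Reads that mapped to several places were kept at 1 place each. The libraries were read from both ends, so a repeated word does not by itself leave a read pair without a unique place. Words shared by Gm21761 and Gm20767 in particular were not counted, and the number of read pairs with several matches is not known here.

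In 5 kb bins within 250 kb of Gm21761, the median share of repeated words was 56.1% over 28 bins in domains in all 4 sorted sets, 33.8% over 55 bins in domains in some of them and 50.4% over 17 bins in none. Repeated sequence was therefore common around Gm21761 both in bins with a constant domain and in bins with none. Around Tcstv1, whose window overlaps this one, the medians were 64.5%, 27.1% and 50.4% in the same order. The other members differed. Around Tcstv3 the median was 38.4% over 42 bins in all 4 sets and 90.7% over 10 bins in some. Around Spz1 it was 47.8% over 3 bins in all 4 sets, 0.26% over 38 in some and 0% over 59 in none. Around Arg2 it was 0.22% over 13 bins in some sets and 0% over 87 in none. Around Zfp352 all 100 bins were in domains in all 4 sets, with a median of 0.61%. The bin that held the start had 91.4% repeated words for Gm21761, 20.0% for Tcstv1, 10.8% for Tcstv3, 33.8% for Zfp352, 47.2% for Arg2 and 2.82% for Spz1. The part of read placement in the domain calls was not tested.

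**Figure D3:**
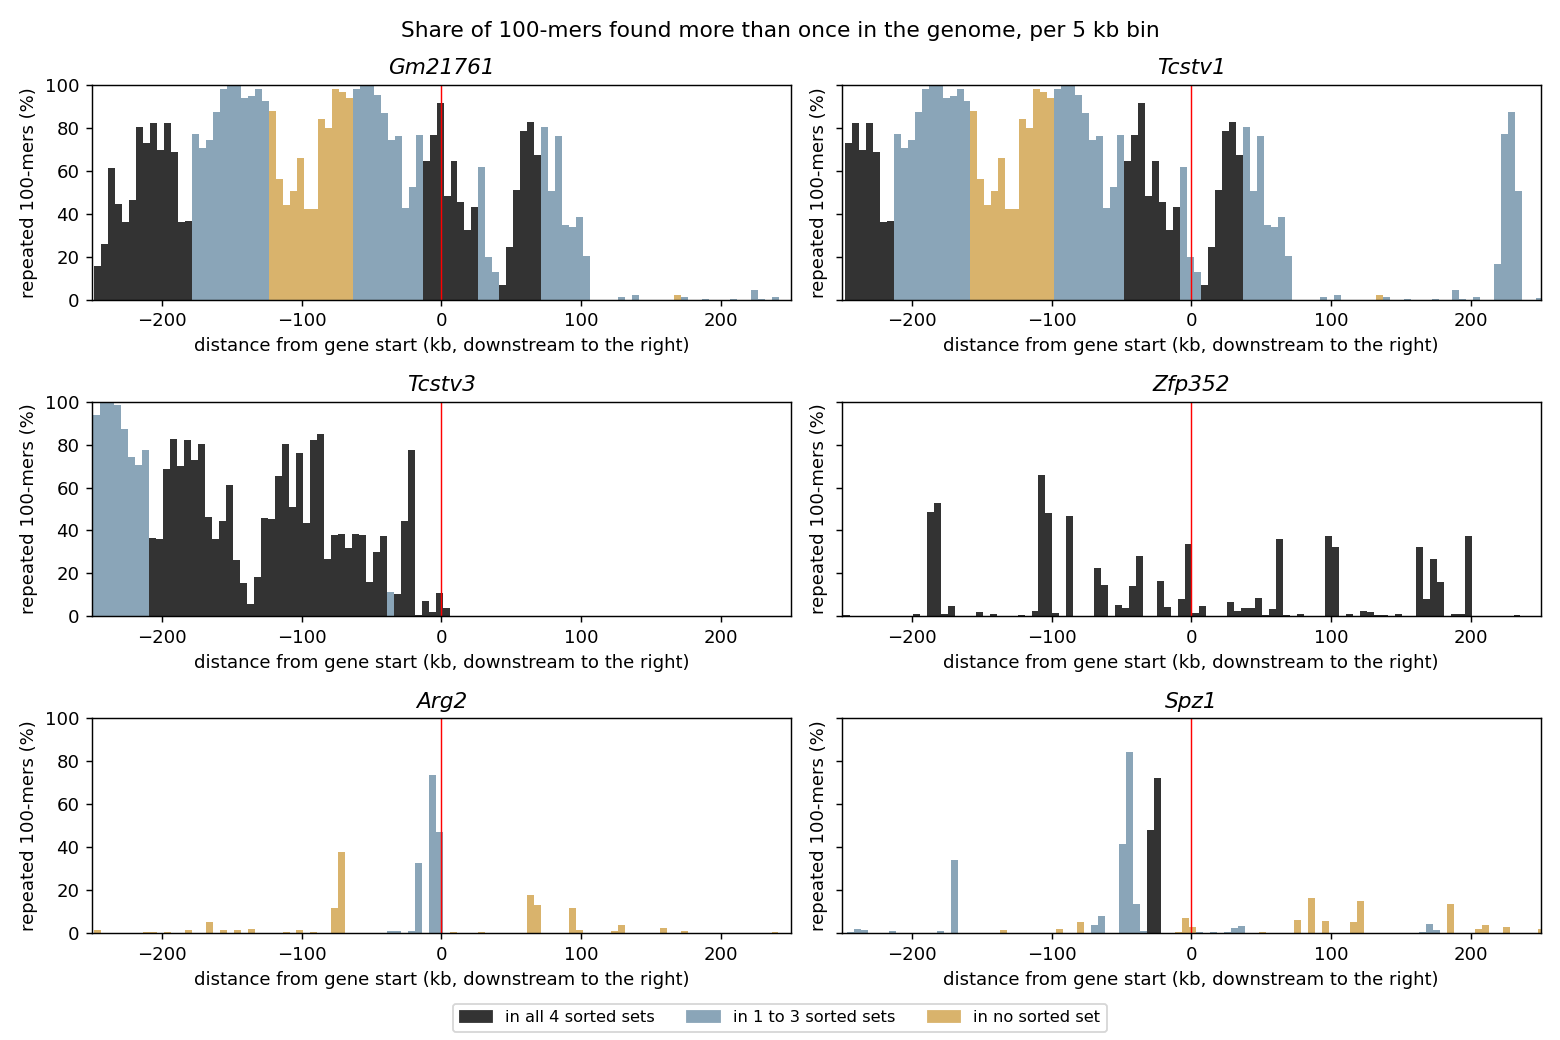
Percent of 100-base words that occur more than once in the genome, per 5 kb bin within 250 kb of each start (red line), by distance in kb with transcription to the right. Bar colour gives whether the bin was in a domain in all 4 sorted sets, in 1 to 3 or in none, and bins without known sequence are left out. Repeated words are frequent around Gm21761 and Tcstv1 in bins of every class. They are frequent around Tcstv3 as well, where every bin shown was in a domain in at least 1 sorted set. Around Arg2 and Spz1 they are sparse outside a few bins.

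Zfp352 (ENSMUSG00000070902.5, chr4:90218820-90225702, plus strand) lay in the widest domain of the 6 genes in every set. Its mESC domain was 1655 kb wide with DMSO and 1400 kb with dTAG, its 2CLC domain 1705 kb wide with either treatment, and its domain in the unnamed set 300 kb. The dTAG width was thus below the DMSO width in mESCs and equal to it in 2CLCs. With gaps of up to 10 kb joined it was below the DMSO width in both, at 1725 kb against 1855 kb in mESCs and 1760 kb against 1830 kb in 2CLCs. The start was 564 kb or more from the nearest edge in each sorted set, and 88.5 kb from it in the unnamed set. Of the 500 kb on each side of the start, 100% was in domains in all 4 sorted sets and 93.5% in the unnamed set. No other coding start lay within 500 kb. The nearest were those of Dmrta1, 539 kb to the left and inside domains in all 5 sets, and Elavl2, which encodes a neuronal RNA-binding protein, 1182 kb to the right and inside a domain in 2CLC dTAG only. Among coding starts inside domains, 79.2% lay in a narrower domain than Zfp352 with DMSO and 75.8% with dTAG in mESCs, and 73.1% with DMSO and 83.0% with dTAG in 2CLCs.

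Those shares were 4.50% and 8.96% in mESCs and 10.3% and 43.4% in 2CLCs for Gm21761, DMSO first. For Tcstv3 they were 23.5% and 44.1% in mESCs and 2.49% and 47.4% in 2CLCs. The shares count coding starts and not domains, so a domain with many genes counts many times. The Gm21761 domain was narrower than the median domain of its list in mESC DMSO, mESC dTAG and 2CLC DMSO. In 2CLC dTAG it was wider, at 175 kb against 60 kb. The lists differed in domain number and width as a whole, from 4246 domains (2CLC DMSO) to 8820 (2CLC dTAG). Median widths were 140.0 kb with DMSO and 60 kb with dTAG in mESCs, 115 kb and 60 kb in 2CLCs, and 150.0 kb in the unnamed set. The dTAG lists held more and narrower domains in both cell states, 7312 against 4323 in mESCs. Against that, the domains at Gm21761 and Tcstv3 were wider with dTAG than with DMSO in 2CLCs.

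**Figure D4:**
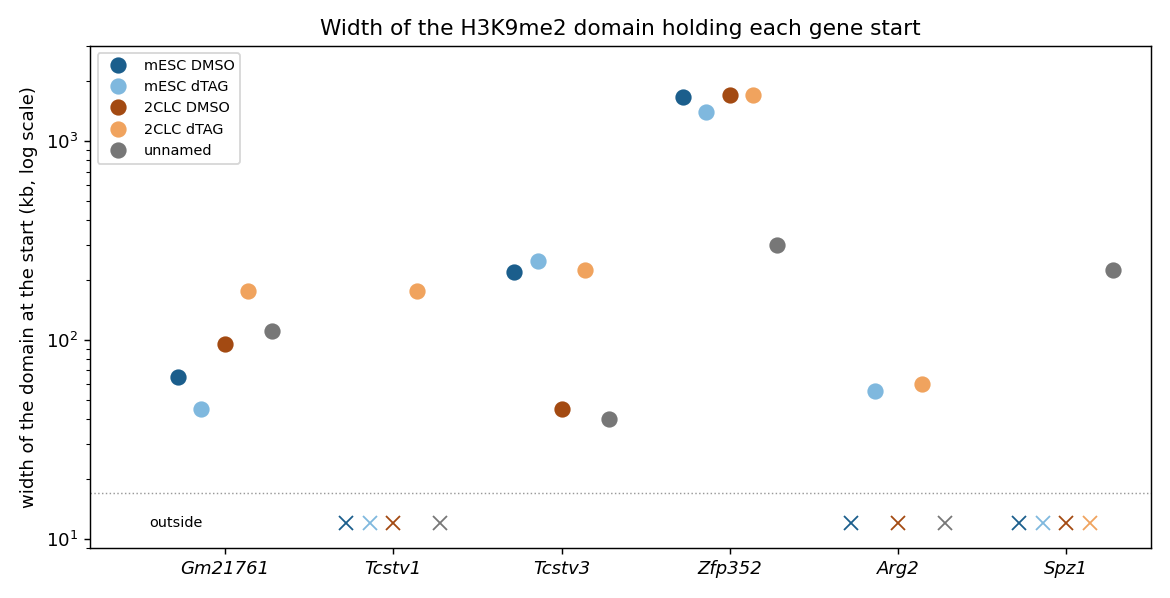
Width in kb (log scale) of the domain that held the start of each gene, 1 point per domain set. Crosses under the dotted line mark starts outside domains and have no width. Zfp352 is at 1400 kb to 1705 kb in the sorted sets, Arg2 at 55 kb and 60 kb with dTAG only, and Spz1 has a width, 225 kb, in the unnamed set only.

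Arg2 (ENSMUSG00000021125.6, chr12:79130777-79156301, plus strand) was outside domains in both DMSO sets and inside in both dTAG sets. With DMSO the nearest domain was 414 kb from the start in mESCs and 404 kb in 2CLCs, in stretches of 845 kb and 1685 kb without a domain. With dTAG its domain was 55 kb wide in mESCs and 60 kb wide in 2CLCs, and it ended shortly after the start, at 6.25 kb in mESCs and at 1.25 kb in 2CLCs. The body was covered over 24.5% of its length in mESC dTAG and 4.88% in 2CLC dTAG, so most of the gene lay outside. With domains trimmed by 5 kb on both sides the start was outside in 2CLC dTAG, and with at least 50% of the body required Arg2 was outside in both dTAG sets. In both dTAG sets the same domain held the start of Pigh, 41.1 kb away, a gene for a subunit of the enzyme that begins glycosylphosphatidylinositol anchor synthesis. On the other side Vti1b, 41.9 kb away, was outside in all 5 sets. Of 13 coding neighbours within 500 kb, 0 had their start in a domain with DMSO in either cell state, and with dTAG 1 did in mESCs and 2 in 2CLCs. The second neighbour in 2CLC dTAG was Fam71d, farther to the left in a separate domain of 45 kb. The unnamed set had no domain at Arg2, and the nearest was 394 kb away.

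Spz1 (ENSMUSG00000046957.5, chr13:92574636-92576172, minus strand) was outside domains in the 4 sorted sets. The nearest domain was 16.7 kb from the start in mESC DMSO, 3.35 kb in mESC dTAG and 11.7 kb in both 2CLC sets. The gap that held the start was 385 kb in mESC DMSO and 380 kb in 2CLC DMSO, and 15 kb in mESC dTAG and 25 kb in 2CLC dTAG. Within 50 kb on each side, 28.3% of bases were in domains with DMSO and 83.3% with dTAG in mESCs, and 20.0% and 68.3% in 2CLCs. In wider windows the mESC shares ran the other way, at 23.7% with DMSO and 21.7% with dTAG within 250 kb and 38.5% and 33.8% within 500 kb, while the 2CLC shares were 17.7% and 26.7%, and 35.7% and 40.0%. Domains were thus nearer on the downstream side with dTAG in both cell states while the gene itself stayed outside. With domains extended by 5 kb on both sides its start was inside in mESC dTAG. Its nearest coding neighbours differed from it, as Zfyve16, 45.3 kb away, was inside in both dTAG sets and Serinc5, 34.9 kb away, in mESC dTAG. In the unnamed set Spz1 lay whole in a domain of 225 kb with 3 coding starts, its own and those of these neighbours. Of all coding starts, 6.31% were likewise outside the sorted domains and inside the unnamed set.

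**Figure D5:**
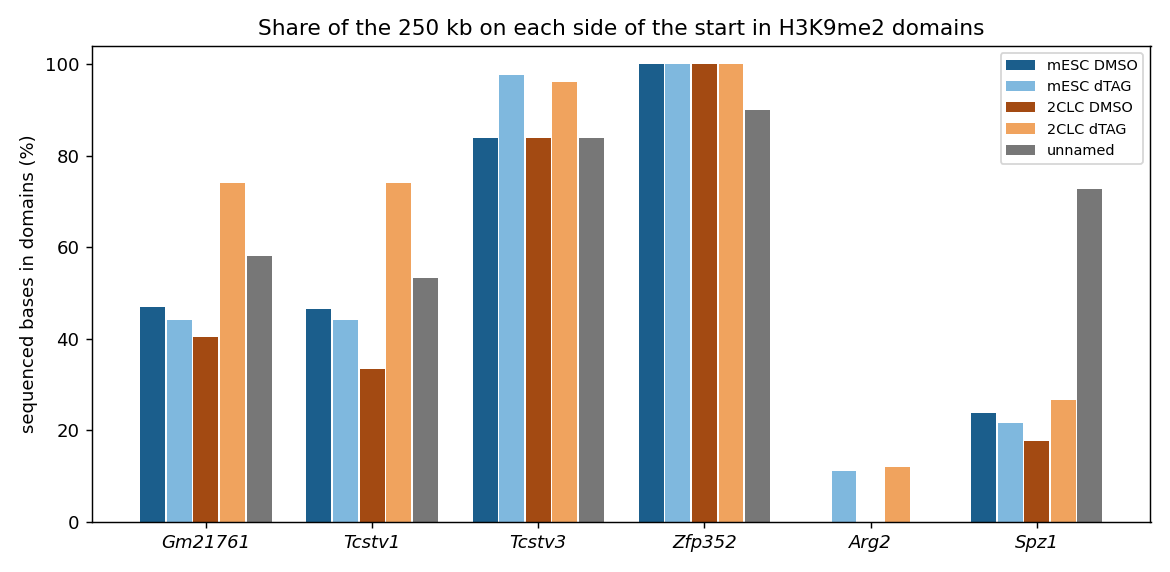
Percent of sequenced bases within 250 kb on each side of the start that lay in domains, for each gene and set, with bars from 0. Gm21761 and Tcstv1 reach 74.0% in 2CLC dTAG against 33.4% to 47.0% in the other sorted sets, Zfp352 is at 100% in all sorted sets, and Arg2 is at 0% in both DMSO sets.

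Other genes of the 2-cell programme were counted from a list of 40 symbols, of which 38 were in the annotation (Zscan4a and Zfp353 were not). Of these 38, 31 had their start in a domain with DMSO and 32 with dTAG in mESCs, 34 with DMSO and 32 with dTAG in 2CLCs, and 30 in the unnamed set. The shares over all coding starts were, in the same order, 22.3%, 23.6%, 23.2%, 26.5% and 30.0%. Over the 38 the median width was 895 kb and 835 kb in mESCs, 735 kb and 700 kb in 2CLCs, DMSO first, and 395 kb in the unnamed set, counting 0 outside domains, and the median over all coding genes was 0. Many of these genes are tandem copies that share a domain, so the counts are not of independent genes. Sp110 and Duxf3, the latter encoding the DUX factor that activates 2-cell genes, were inside in 2CLC DMSO and outside in the other sorted sets, and Rfpl4 was outside in mESC DMSO only. On chromosome 4, B020004J07Rik, Pramef6 and Pramef25 were inside domains in all 5 sets, like Zfp352. On chromosome 12, Gm8300, Gm4027, Gm5662 and Abcb5 were inside in all 5 sets and BB287469, Gm2016 and Gm2022 in the 4 sorted sets, unlike Arg2. Gm20767, in the chromosome 13 cluster, was inside in all 5. No gene on the list had the placement of Arg2, inside in both dTAG sets and in neither DMSO set, or that of Tcstv1. These placements were rare over all coding genes as well, at 2.72% and 3.43%. Their absence from 38 genes therefore does not set Arg2 or Tcstv1 apart from the list.

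The genes with the most similar widths over the 4 sorted sets were found by the mean absolute difference of log10(1 + width in kb), with 0 outside domains, among genes on other chromosomes or over 5 Mb away. For Gm21761 these were Gm32717 and Gm32802, which had equal widths, and Armc3, at mean differences of 0.096, 0.096 and 0.10. For Tcstv3 they were Mme, Nlrp1b and Pcdha12, at 0.11, 0.13 and 0.14. For Arg2 they were Zfp617, Zfp709 and Zfp882 on chromosome 8, with widths of 55 kb and 60 kb in the dTAG sets as at Arg2. For Tcstv1 the first by symbol were Acp5, Elof1 and Ndufa3, with 7 genes tied at that likeness, and for Zfp352 Mrgpra1, Mrgpra2a and Mrgpra2b, with 15 tied. For Spz1 14280 genes were tied, all of them outside domains in the 4 sets.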

How the data were processed

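Per the labels and the study's methods, the authors mapped reads to mm10 with STAR 2.7.10, keeping reads with several matches at 1 location, and removed duplicates with Picard 2.26.0. SAMtools 1.14, bedtools 2.30.0, deepTools 3.5.1 and R 4.1.2 are also listed. Domains were seeded where log2(ChIP/Input) passed a high percentile and extended to a low one, and edges lie on a grid of 5 kb. Whether replicates were pooled is not given in the sources used here. The deposited lists hold positions and a score column that is 0 throughout, so depth is unknown. Gene starts are the outermost 5′ starts in GENCODE M21, and a start counted as inside when its base lay in a domain. Shares of windows use known bases only. Alternatives moved domain edges, joined gaps of up to 10 kb, dropped domains under 50 kb, or used the gene body or the most downstream start. Placements were counted, and no test was run. Interval code was tested on simulated data. Python 3.11.15, numpy 2.4.6 and pandas 2.3.3 were used. Members, gene lists and neighbours named by rule (all members, nearest coding genes, genes on a member's chromosome or of changed placement) were chosen with earlier results of these data known.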

Additional observations from a re-analysis of the deposited data

Results flagged for a closer look

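Spz1 was outside domains in the 4 sorted sets and lay in a domain of 225 kb in the set whose name gives no condition. It was picked out because that set entered no comparison between conditions. The cells and treatment behind that set are not given in its name, so the difference was not tested.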

How the results depend on the processing

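Each of the 8 member counts was recomputed under 7 alternatives, and 49 of 56 values were within 1.5 times the reported count. A value within this limit could still differ in its count or in its members. With at least 50% of the gene body required, 0 members entered domains in mESCs and 1 (Tcstv1) in 2CLCs, since Arg2 was covered in part only. With domains extended by 5 kb, 2 members (Arg2 and Spz1) entered in mESCs and 1 (Arg2) in 2CLCs. All 6 members were then inside in mESC dTAG, and Tcstv1 was inside in both DMSO sets. With gaps of up to 10 kb joined, 1 member (Arg2) entered in 2CLCs, because Tcstv1 was then inside with DMSO as well. With domains trimmed by 5 kb, 1 member (Tcstv1) entered in 2CLCs. With domains of at least 50 kb only, 1 member (Gm21761) left domains in mESCs and 3 (Tcstv1, Tcstv3 and Arg2) entered in 2CLCs. Any base of the body and the most downstream start gave the reported members in each set. Over all annotated genes in place of coding genes, the background shares were 35.4%, 33.8%, 35% and 36.7% in mESC DMSO, mESC dTAG, 2CLC DMSO and 2CLC dTAG. No paired analysis was possible because the lists give 1 set of positions per condition and no value per replicate. Leaving out a replicate could not be done for the same reason.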
